A study of Mus musculus with 2 samples.

Results

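The genes of proteoglycans, hyaluronan and heparan sulfate enzymes were examined in CH cells, small cells circulating in the blood of healthy mice. From a list of 46 genes, those with a probe set that names 1 gene only in the platform annotation were taken, which left 43 members of the 18193 genes measured in this way. Xylt1, Ndst1 and Hyal1 were not analysed here. The members were divided into 21 core proteins, 6 enzymes of chain synthesis, 11 of chain modification and 5 genes of hyaluronan. RNA of CH cells from adult C57bl/6 mice was hybridised to 2 Affymetrix arrays, 1 for each replicate, and there was no other group. The submitters' notes call the replicates biological and give, for each, cells pooled from 15 male and female mice aged 7 months, whereas the general methods of the paper give fewer mice per group and a younger age. CH cells had been sorted by size as cells lacking CD45 and lineage markers and holding DNA, so each value is an average over a pool of mice and over all the cells in the gate.

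A proteoglycan is a core protein that carries long sugar chains, the glycosaminoglycans. Chains of heparan sulfate or chondroitin sulfate are begun on a serine of the core protein by the xylosyltransferases Xylt1 and Xylt2, lengthened by polymerases and then sulfated at chosen positions, and the pattern of sulfates decides which growth factors, morphogens and chemokines are bound. Hyaluronan differs in having no core protein and no sulfate, since it is spun out directly at the plasma membrane by hyaluronan synthases. In connective tissue these molecules hold water and organise collagen, while on the surface of cells they act as co-receptors and in adhesion.

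Values are log2 signals as deposited, and the probe set with the highest mean of both arrays stood for a gene. The limit was 5 (log2), and a gene counted as above it if array 1 and array 2 both exceeded 5 in 1 probe set. Signals of different probe sets also depend on the affinity of their probes, so levels are set against the limit and do not rank transcripts by abundance. The arrays correlated with r = 0.9967 over 45037 probe sets (genes are no independent replicates) and had medians of 5.54 and 5.52. Receptors of smell and taste were taken as genes that should be silent. Of 78 such genes, 13 were above 5, and the highest, Vmn1r44, reached 6.92, so a member below that level cannot be separated from background by the limit alone. Of marker genes of other cells, 10 of 10 mesenchymal genes were above the limit (levels of 6.55 to 14.27), 6 of 6 of pluripotent cells (6.59 to 10.43), 5 of 6 of leukocytes (5.10 to 8.25), 5 of 5 of platelets and megakaryocytes (5.55 to 7.18), 2 of 4 of erythroid cells (4.22 to 7.14) and 2 of 6 of endothelial cells (3.83 to 6.43). Ptprc, which encodes CD45, was at 4.95 on array 1 and at 5.24 on array 2, on either side of the limit. Which cells of the gate gave the signal of a member was not tested.

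CH cells showed signal for most genes that build proteoglycans. Above the limit were 38 of the 43 members (88.4%), beside 71.2% of all genes. The call went to 18 of 21 core proteins, 6 of 6 enzymes of chain synthesis, 9 of 11 of modification and 5 of 5 genes of hyaluronan. With limma, which sets the mean of each probe set against 5 and adjusts over all probe sets, 36 members were above 5 at an adjusted p under 0.05, beside 69.1% of all genes. Ncan and Has3 were lost in that test. A limit of 8 was passed by 21 members (48.8%), beside 37.0% of all genes, and the median level was 7.93 over the members and 6.84 over all genes. With the limit at 6, 31 members were above it, beside 57.8% of all genes, and at the level of the highest receptor gene 26 members were, beside 48.3% of all genes. A gene with several probe sets passes more easily. Among genes with 1 probe set, 14 of 17 members and 56.7% of all genes were above 5, with 2 probe sets 10 of 11 members and 80.9% of all genes, while with 3 or more probe sets it was 14 of 15 members and 91.5% of all genes. Counted by probe set, 68 of 99 of the members' probe sets (68.7%) were above 5, beside 64.8% of all probe sets naming 1 gene.

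**Figure D1:**
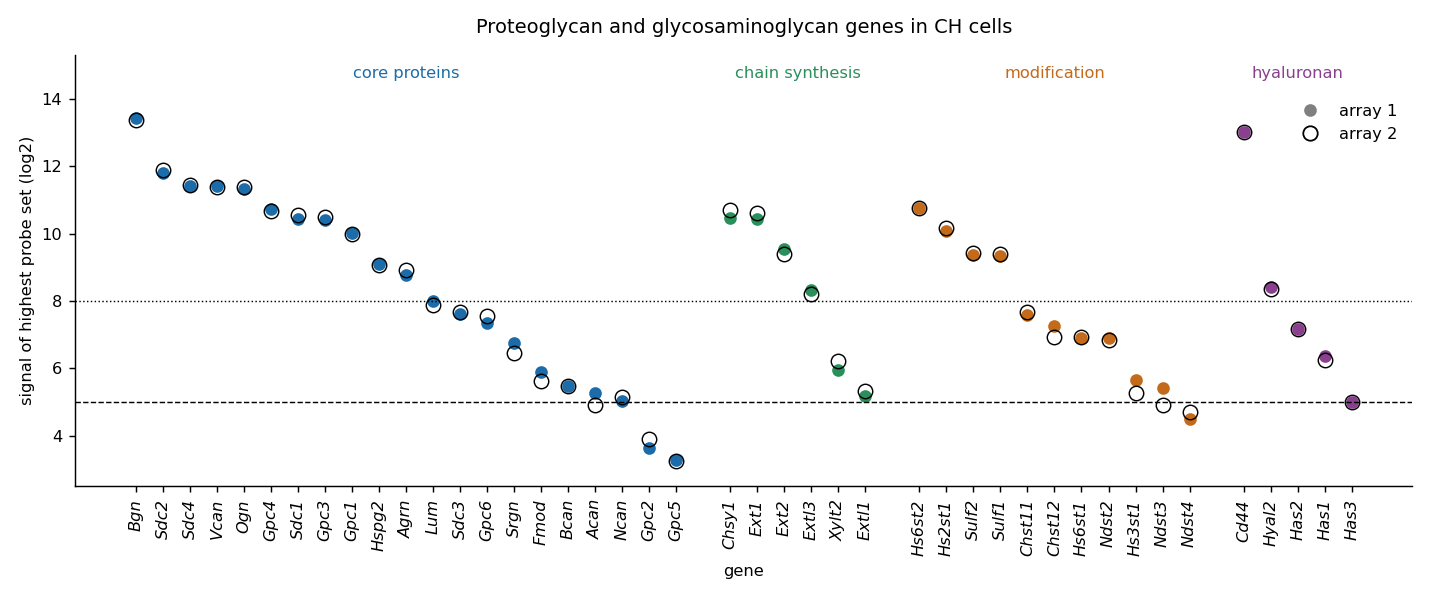
Log2 signal of the highest probe set of each of the 43 members on array 1 (filled circles) and array 2 (open circles) of CH cells, grouped by role along the horizontal axis. Lines are drawn at 5 (dashed) and at 8 (dotted); Bgn and Cd44 lie near 13, and Gpc2, Gpc5 and Ndst4 lie below 5 on both arrays.

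Among the glypicans, heparan sulfate proteoglycans held to the cell surface by a lipid anchor, 4 of 6 were above the limit. The share over all genes was 71.2%. Gpc4, a co-receptor for FGF and Wnt ligands, had signals of 10.74 on array 1 and 10.68 on array 2. Gpc3, which restrains Hedgehog signalling in the embryo, had 10.41 and 10.48. Gpc1, found in many tissues, had 10.02 and 9.995. For each of these 3 genes the SD between the arrays was at most 0.05, and limma gave adjusted p-values of at most 1.21e-07 for the difference from 5. Gpc6, active in developing bone, had 7.34 and 7.56 with its highest probe set. Its 4 other probe sets had means between 4.61 and 6.66, and 3 of its 5 probe sets were above 5 on both arrays. Gpc2, a glypican of growing neurons, had 3.65 and 3.92, and Gpc5 had 3.27 and 3.26. Both means were below 5 by more than the spread between the arrays (adjusted p of 7.64e-05 and 5.66e-06 from limma). Each was read by 1 probe set only.

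All 4 syndecans, the transmembrane proteoglycans that link heparan sulfate to the cytoskeleton, were above the limit, beside 71.2% of all genes. Among all genes with 3 or more probe sets, as Sdc1, Sdc2 and Sdc3 have, 91.5% were above it. Sdc2, known from mesenchymal cells, had 11.78 and 11.87. Sdc4, a component of focal adhesions in many cell types, had 11.42 and 11.44. Sdc1, known from epithelia and plasma cells, had 10.44 and 10.55. These 3 syndecans were also above 8 on both arrays, as were 37.0% of all genes. Sdc3, known from the nervous system and muscle, was above 5 but not 8, at 7.61 and 7.66, and its 2 other probe sets were at 7.02 and 6.17. Every probe set of Sdc1, Sdc3 and Sdc4 was above 5, whereas 1 of the 4 probe sets of Sdc2 was at 3.85.

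The members among the small leucine-rich proteoglycans, which bind collagen fibrils in the matrix, were all above the limit, beside 71.2% of all genes. Bgn, or biglycan, a carrier of chondroitin or dermatan sulfate, was at 13.39 ± 0.05 (SD, n = 2 arrays), with 13.43 on array 1 and 13.35 on array 2, and its other probe sets were at 13.35 and 12.28. Ogn, also called osteoglycin or mimecan, had 11.32 and 11.37, and 10.08 with its other probe set. Both genes were far above the limit with every probe set. Lum, which encodes lumican, a keratan sulfate proteoglycan of cornea and skin, had 7.995 and 7.87 with its only probe set, above 5 and just under 8 on both arrays. Fmod, which encodes fibromodulin of cartilage and tendon, was close to the limit at 5.89 and 5.62 (adjusted p = 6.3e-04 from limma). Of its 6 probe sets, 3 were above 5 on both arrays, and all 3 belong to the kind ending in _x_at, which can also bind other transcripts. The only probe set of Fmod of another kind was at 4.81 and 5.05.

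The lecticans bind hyaluronan and carry chondroitin sulfate, and only versican was well above the limit. Vcan, whose product fills the loose matrix of embryonic and migrating tissues, had 11.40 and 11.37. Its 2 next probe sets were at 10.47 and 9.87, and the other 5 lay between 3.22 and 4.29, all below 5 on both arrays. The probe sets of Vcan thus fell into 2 separate groups. Acan, which encodes aggrecan of cartilage, had 5.28 on array 1 and 4.91 on array 2 and did not pass the limit (adjusted p = 0.42 from limma). Ncan, or neurocan of the brain, had 5.02 and 5.14 and passed the limit on both arrays, but not the test of limma (adjusted p = 0.34). Bcan, or brevican of the brain, had 5.47 and 5.49 with a probe set ending in _x_at (adjusted p = 0.0013 from limma) and 4.78 on both arrays with the other. Acan, Ncan and Bcan were all below the highest receptor gene taken as background.

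Several core protein genes stand next to each other in the genome, with no protein-coding gene between them in the assembly GRCm38.p6, and neighbours did not share a side of the limit in every case. Lum lies between Dcn and Kera. Dcn, or decorin, was at 11.99 and Lum at 7.93, while Kera and Epyc, proteoglycans of cornea and of growing cartilage, were at 3.17 and 3.51. The other probe set of Dcn was at 4.29. In the group of Aspn, Omd and Ogn, proteoglycans of bone and other connective tissue, all 3 were above the limit, at 7.71, 7.95 and 11.35. In that of Optc, Prelp and Fmod all 3 were above it too, at 6.47, 6.34 and 5.75. None of them reached 8 or the highest receptor gene at 6.92. Each lectican has as neighbour a gene of a link protein, which fastens lecticans to hyaluronan. Hapln1, beside Vcan, reached 3.69, and all 4 of its probe sets were below 5. Hapln2, beside Bcan, was at 4.88, Hapln3, beside Acan, at 5.94 and Hapln4, beside Ncan, at 6.21. These link protein genes were likewise below the highest receptor gene. The pair Gpc4 and Gpc3 lay above 8 with both genes, at 10.71 and 10.45, whereas of the pair Gpc5 and Gpc6 only Gpc6, at 7.45, was above 5. The neighbours were named after their values were seen.

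**Figure D2:**
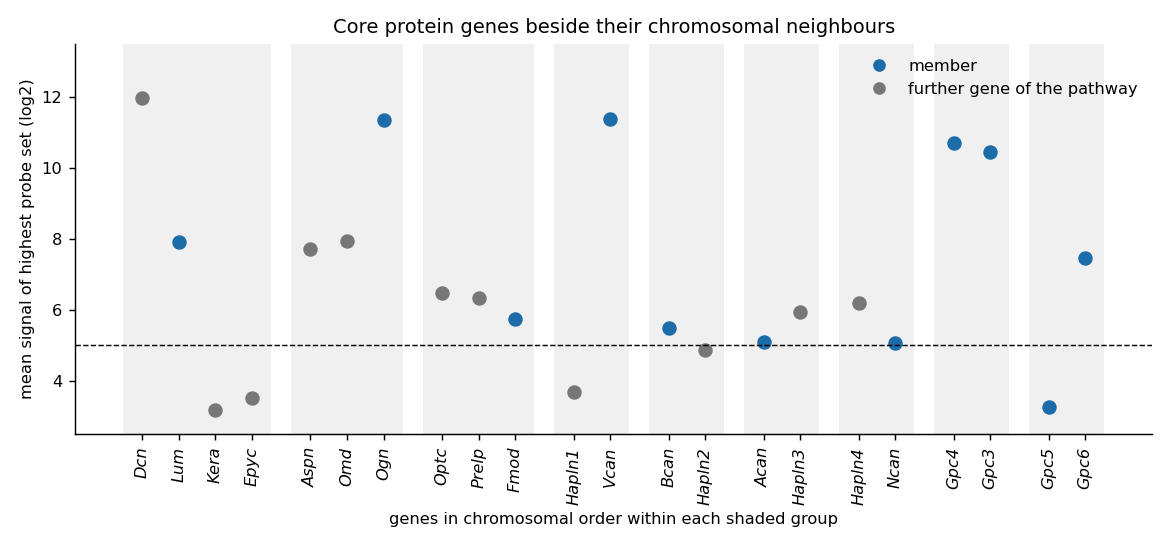
Mean log2 signal of both CH cell arrays, with the highest probe set of each gene. Core protein genes (blue) and their neighbours from the further genes of the pathway (grey) stand in chromosomal order within each shaded group. The dashed line marks 5; Vcan at 11.39 stands beside Hapln1 at 3.69, and Dcn at 11.99 and Lum at 7.93 beside Kera at 3.17 and Epyc at 3.51.

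The members among the large proteoglycans of basement membranes were both above 8, as were 37.0% of all genes. Hspg2, which encodes perlecan, had 9.09 and 9.08, and its other probe set was at 8.81. Agrn, which encodes agrin, the organiser of the neuromuscular junction that is also found in other basement membranes, had 8.77 and 8.91, with its other probe set at 4.88. Srgn encodes serglycin, the proteoglycan that packs the granules of leukocytes, mast cells and platelets. It had 6.74 on array 1 and 6.46 on array 2, above the limit (adjusted p = 2.59e-05 from limma) but below the highest receptor gene at 6.92. Of the marker genes of cells in which serglycin is abundant, 5 of 6 of leukocytes and 5 of 5 of platelets and megakaryocytes were above 5, beside the 71.2% of all genes, but most of them lay below the highest receptor gene. Cd53, a tetraspanin of leukocytes, had probe sets at 8.25 and 3.55. By their means, the platelet genes Itga2b at 7.18 and Ppbp at 6.99, with 1 probe set each, were also above the highest receptor gene. The part of such cells in the signal of Srgn was not tested.

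All 6 enzymes of chain synthesis were above the limit, beside 71.2% of all genes. At a limit of 6, 4 of them remained, beside 57.8% of all genes. The polymerases of heparan sulfate were above 5 by more than 4 on the log2 scale with their highest probe sets. Xylt2, a xylosyltransferase that starts chains of heparan and chondroitin sulfate, had 5.94 and 6.24, below the highest receptor gene at 6.92. Of further enzymes of the linkage region, named after their values were seen, B3galt6 was at 8.73, B3gat3 at 8.07 and the xylose kinase Fam20b at 8.80. With these highest probe sets all were above 8 on both arrays. The others of B3galt6 were at 6.27 and 6.26, that of B3gat3 at 5.87 and those of Fam20b at 7.60 and 4.69. B4galt7 was at 6.63, which like the level of Xylt2 cannot be separated from background by the limit alone. Extl3, which adds the first sugar that commits a chain to heparan sulfate, had 8.34 and 8.20. Ext1 and Ext2, the subunits of the polymerase, had 10.44 and 10.60, and 9.54 and 9.39. Their other probe sets were lower, at 4.82 for Ext1, at 5.38 and 4.05 for Ext2 and at 5.09 for Extl3. Chsy1, a polymerase of chondroitin, had 10.47 and 10.71 and was read by 1 probe set. Extl1, a relative of the exostosins, was close to the limit, at 5.18 and 5.34 (adjusted p = 0.023 from limma).

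Sulfation enzymes of heparan sulfate from the same family did not all pass the limit, but some of these calls lay near background. Of the N-deacetylase/N-sulfotransferases, which open the modification of a chain, Ndst2, known from mast cells but found widely, had 6.91 and 6.85. Ndst2 was thus below the highest receptor gene at 6.92, and Ndst1 was not analysed. Ndst3 had 5.41 on array 1 and 4.92 on array 2, and Ndst4 had 4.49 and 4.71. Ndst3 thus lay on either side of the limit (adjusted p = 0.28 from limma), and all 3 probe sets of Ndst4 were below 5 on both arrays. Hs2st1, the single enzyme of the uronic acid 2-O-sulfate, had 10.08 and 10.16, and its other probe sets were at 8.49, 7.12 and 5.20. Hs6st2, an enzyme of the glucosamine 6-O-sulfate, had 10.75 and 10.76, with the next probe set at 8.29 and the last 2 at 4.03 and 4.01. Hs6st1, which makes the same modification, had 6.89 and 6.93 with 1 probe set. Its mean of 6.91 was also below the highest receptor gene. Hs2st1 and Hs6st2 were therefore above 8 on both arrays. Hs3st1, whose product creates the binding site of antithrombin, was near the limit at 5.65 and 5.27 (adjusted p = 0.0098 from limma).

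Both extracellular sulfatases, which trim 6-O-sulfates from finished heparan sulfate and so change the binding of Wnt and FGF ligands, were above 8. Of all genes 37.0% were. Sulf1 had 9.34 and 9.41, with other probe sets at 8.58 and 3.84. Sulf2 had 9.37 and 9.41 with a probe set ending in _x_at, and 7.07 and 6.43 with the others, so its passing of 8 rests on that probe set. The 4-O-sulfotransferases of chondroitin were above 5 but below 8. Chst11 had 7.58 and 7.66, with its other probe set at 4.82, and Chst12 had 7.25 and 6.92.

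All 5 hyaluronan genes were above the limit, with Cd44 and Hyal2 also above 8 on both arrays. Of all genes, 71.2% were above 5 and 37.0% above 8. Cd44, the main receptor of hyaluronan at the cell surface and a marker of many stromal and blood cells, had 13.00 and 13.01 with its highest probe set. Its next probe sets were at 12.60 and 11.43, and 1 further probe set was at 3.40. Of the synthases, Has2, the form needed for the heart of the embryo, had 7.17 on both arrays and 6.37 with its other probe set. Has1 had 6.37 and 6.25, below the highest receptor gene of the background list. Has3 had 5.0020 and 5.0045, higher than the limit by less than 0.01, and was not above 5 with limma (adjusted p = 0.97). The count of 5 of 5 therefore includes a gene at the limit itself. Hyal2, a hyaluronidase anchored at the cell surface, had 8.42 and 8.37.

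Probe sets of the same gene often differed by far more than the arrays did. Of 26 members with several probe sets, 15 had a gap of over 2 on the log2 scale between the highest and the lowest, and 14 had probe sets that passed the limit beside others that did not. The widest gaps were those of Cd44 at 9.60, Vcan at 8.16, Sdc2 at 7.98 and Hs6st2 at 6.74. The highest probe set of each of these genes had an SD between the arrays of under 0.1, far below the gaps. Which transcripts each probe set reads was not tested. The narrowest gap was that of Hspg2, at 0.28.

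**Figure D3:**
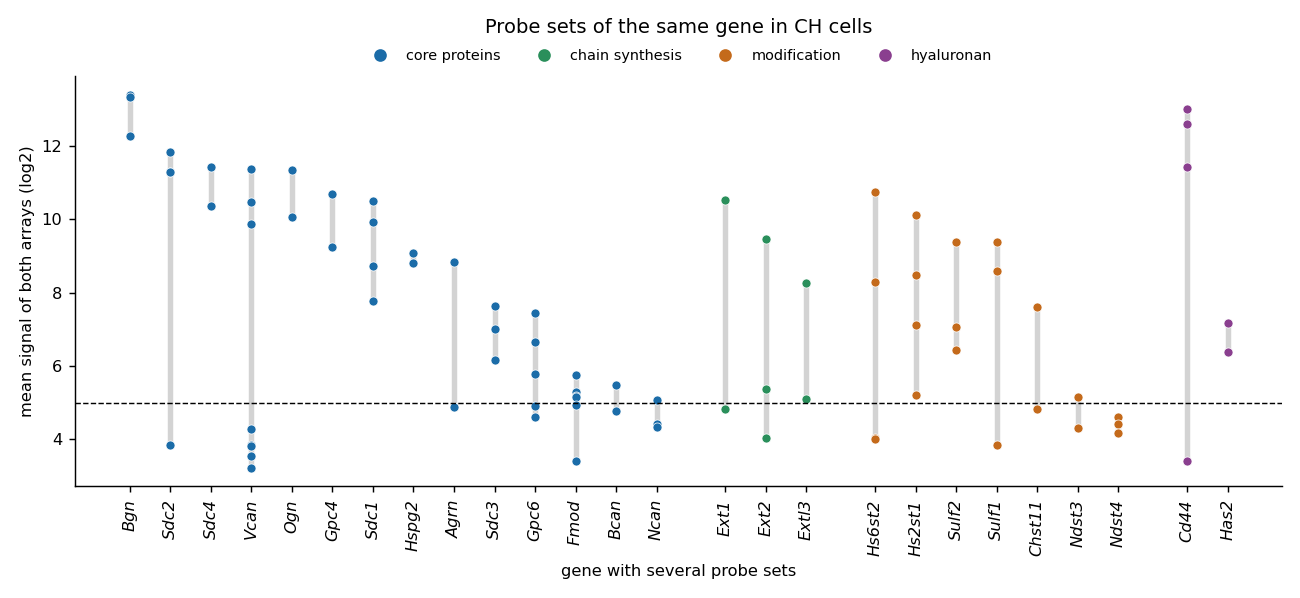
Mean log2 signal of both CH cell arrays for every probe set of the 26 members that have several, with 1 circle per probe set and a grey bar over the range of a gene. The dashed line marks 5; in Cd44, Vcan and Sdc2 the lowest probe sets are at 3.40, 3.22 and 3.85, below the highest by 9.60, 8.16 and 7.98.

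The rest of the pathway was described with 76 further genes, of which 58 (76.3%) were above the limit, beside the 71.2% of all genes. Their median was 7.02. Genes of precursor supply were above it in 8 of 8 cases, among them Papss1, which makes the sulfate donor, at 11.66, and Ugdh, which makes UDP-glucuronic acid, at 11.42. Papss2, the other synthase of the sulfate donor, was at 5.68, and Slc35d1, a transporter of nucleotide sugars, was at 7.12. Of 10 further enzymes of linkage and polymerisation 9 were above 5, from Csgalnact2 at 10.27 and Extl2 at 9.20 to B4galt7 at 6.63. The exception was Chsy3, a relative of Chsy1, at 3.35 with its highest probe set.

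Of 14 other modification enzymes, 12 were above the limit (85.7%, beside the 71.2% of all genes). Glce, the epimerase that makes iduronic acid in heparan sulfate, was at 10.64 and Chst15, a sulfotransferase of chondroitin, at 9.88. The other probe sets of Glce were at 6.43 and 4.74, and that of Chst15 at 7.28. Hs3st3a1 was at 4.80 and Hs6st3 at 4.44, so that of the 6-O-sulfotransferases Hs6st1 and Hs6st2 were above 5 and Hs6st3 was not. Chain breakdown in lysosomes and outside cells had 9 of 10 genes above the limit, with Hexa at 11.45, Arsb at 10.44 and Sgsh at 6.54. The other probe sets of Arsb were at 6.62 and 4.94, and that of Sgsh at 4.76. The gene below the limit was Hpse, the heparanase that cuts heparan sulfate outside cells, at 4.86 (adjusted p = 0.15 from limma). Other core proteins passed in 13 of 19 cases (68.4%), a share close to that of all genes, and had a median of 6.12. Dcn was at 11.99 and Tgfbr3, the betaglycan that presents TGF-beta, at 10.97, while Esm1 of endothelial cells was at 3.31 and Kera at 3.17. The other probe set of Dcn was at 4.29 and that of Tgfbr3 at 5.54. Binding and turnover of hyaluronan had 7 of 15 genes above 5 (46.7%, beside the 71.2% of all genes) and a median of 5.18. Hmmr, a hyaluronan-binding protein that also acts at the mitotic spindle, was at 10.03 and Itih2, a carrier of hyaluronan in serum, at 8.21. Lyve1, the hyaluronan receptor of lymphatic vessels, was at 3.66 and Spam1 of sperm at 3.22, both below the limit with every probe set.

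**Figure D4:**
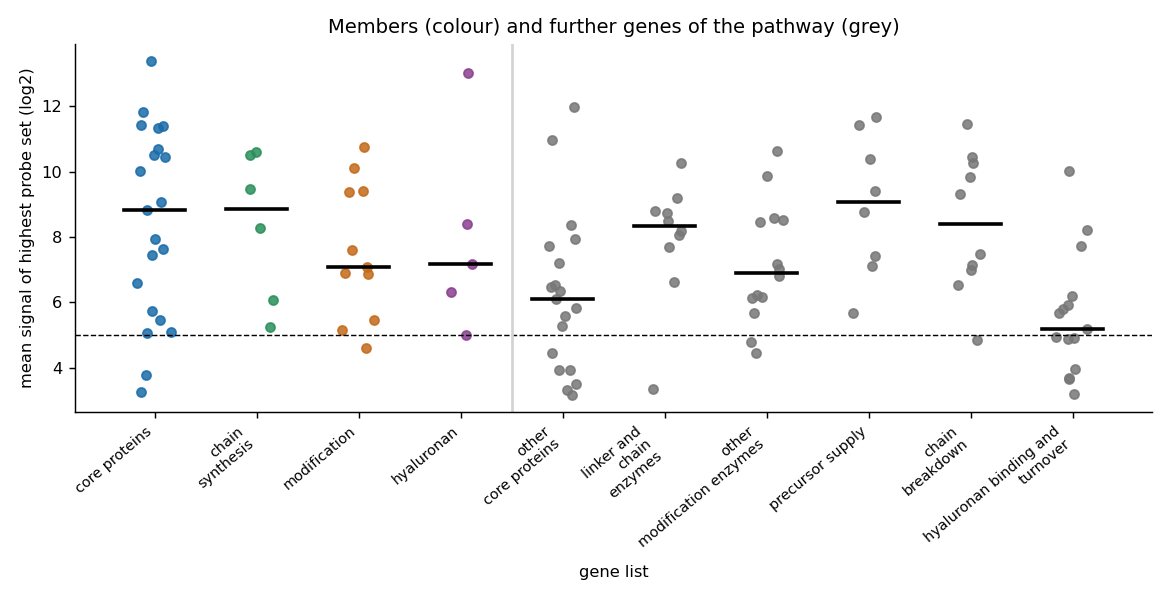
Mean log2 signal of the highest probe set of each gene on both CH cell arrays, for the 4 groups of members (colour) and 6 lists of further genes (grey), with a black bar at the median and a dashed line at 5. Medians are 8.84 for core proteins, 8.87 for chain synthesis, 7.09 for modification and 7.17 for hyaluronan, beside 9.09 for precursor supply and 5.18 for binding and turnover of hyaluronan.

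Replicates agreed closely for members with high signal. The difference between array 1 and array 2 had an SD of 0.21 over the 99 probe sets of members, beside 0.20 over all probe sets. At levels of 8 and above it was 0.09 over 38 probe sets of members and 0.12 over all, and at levels of 5 to 8 it was 0.29 and 0.23. A difference of over 0.4 in size was found in 6 probe sets of members (6.06%), beside 5.61% of all. The largest, of 0.93, was that of a probe set of Gpc6, with 6.19 on array 1 and 7.12 on array 2, and another probe set of Gpc6 had 4.68 and 5.15. The others were 1 of Fmod, 1 of Ext2 and both probe sets of Ndst3, which differed in opposite directions, with 5.41 and 4.92 for the first and 4.11 and 4.52 for the second. All 6 had mean levels below 8. With 2 arrays no member could be tested for a difference between the replicates.

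**Figure D5:**
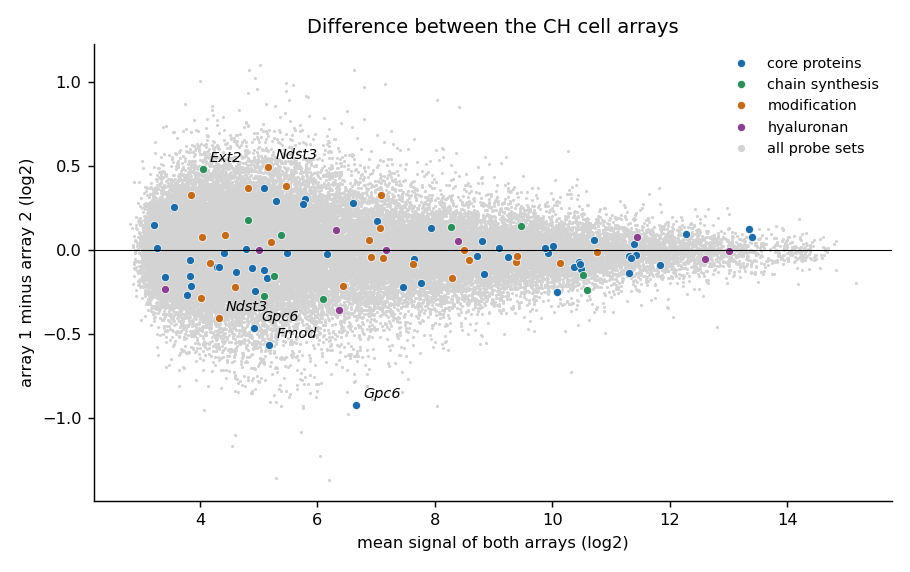
Difference between array 1 and array 2 (log2) against the mean signal of both for all probe sets (grey) and the 99 probe sets of members (colour), with names where the difference is over 0.4 in size. A probe set of Gpc6 lies lowest among the members, at a mean of 6.66, and those at 8 and above keep within 0.25 of 0.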

How the data were processed

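Log2 signals per probe set were used as deposited by the authors. Per the paper, the arrays were processed by RMA and quantile-normalised jointly with 5 public series. The run that the file comes from and the tool versions are not given in the sources used here. Arrays of other cell populations were not analysed here. Of 45101 probe sets, 64 controls were left out. Of the others 34945 name 1 gene, 932 name several and 9160 were not listed, and 34741 were matched by Entrez identifier to GRCm38.p6, which changed 0 symbols. The limit of 5 was taken from the paper, which before clustering removed genes below that value across its whole dataset. Here it was applied to CH cells alone. Means were tested against 5, two-sided, with limma 3.58.1 in R 4.3.3 (a model of 1 intercept, with p-values adjusted by Benjamini-Hochberg over 45037 probe sets). The fit was tested on simulated data. With 2 pools, p-values measure only the spread between these pools, which limma shares in part over all probe sets. The number of arrays limits the precision.

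The members, the further genes of the pathway and the markers were chosen with earlier results of these data known, so no list was tested as a set. Named were all members and the 2 highest and 2 lowest genes of each further list. Linkage enzymes, chromosomal neighbours and the marker genes set beside Srgn were named after values were seen. Background genes were those with symbols beginning Olfr, Vmn, Tas1r, Tas2r or Taar. Counts were repeated with other limits, limma, quantile normalization of both arrays, each array left out, the median over probe sets, and without probe sets ending in _s_at or _x_at. Python 3.11.15 with numpy 2.4.6, pandas 2.3.3 and matplotlib 3.10.9 was used.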

Additional observations from a re-analysis of the deposited data

How the results depend on the processing

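No paired analysis was possible because both arrays belong to the same group. A higher limit admits fewer genes by construction. At a limit of 8, which 37.0% of all genes passed, 21 members were above it (also 21 with limma). Among them were 11 core proteins (52.4%), 4 enzymes of modification (36.4%) and 2 genes of hyaluronan (40%). Of the further genes 27 (35.5%) passed. Those of modification, of hyaluronan and of the further genes were shares close to that of all genes. At the level of the highest receptor gene, an alternative chosen after seeing the data, 26 of the 43 members remained. They included 5 enzymes of modification and 3 genes of hyaluronan, and 48.3% of all genes passed that level. At the 95th percentile of the receptor probe sets (6.02), which 57.6% of all genes passed, 31 members remained, as at a limit of 6. With either array left out, the count of members was 38 to 40, and without array 2 Acan and Ndst3 were above 5. Quantile normalization lost Has3 and moved levels by at most 0.00428. Without probe sets ending in _s_at or _x_at, Fmod was at 4.93 and Bcan at 4.78, both below 5. With the median over its probe sets Vcan was at 4.06, since 5 of its 8 probe sets are below 5, and Fmod and Ncan were lost as well. Lost at a limit of 6 and at that percentile were Fmod, Ncan, Bcan, Xylt2, Extl1, Hs3st1 and Has3, and at the highest receptor gene also Srgn, Ndst2, Hs6st1, Chst12 and Has1, so signal near background limits these calls.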
